A study of Mus musculus with 15 samples.

Results

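The transcripts of 37 complement and coagulation genes were followed across 15 mouse liver libraries. The genes were chosen by name from the 35275 rows of the deposited gene table and all 37 were found there. Of these, 36 were among the 13837 genes with enough counts to be tested, and the other, Cfb, was too low. The libraries came from C57BL/6 mice that were fed ad libitum (AL), fasted intermittently for 16 h (IF16) or fasted every other day for 24 h (EOD), with 5 libraries in each group. Per the labels, all animals started at 3 months of age, spent 3 months on their regimen and were 6 months old at the end, no allele or drug is named, and the left lateral liver lobe was frozen. The labels give neither sex, nor the hour of collection, nor the time since the last meal, and whether the 5 libraries of a group are 5 mice is not stated. The p-values therefore measure only the library-to-library spread, part of which may be technical.

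Complement is a cascade of plasma proteins in which the classical, lectin and alternative routes meet at C3, after which the terminal components assemble a pore in the target membrane. Coagulation is another plasma cascade, in which serine proteases activate each other until thrombin cuts fibrinogen into fibrin, with serpins and the protein C system as brakes and plasmin as the enzyme that dissolves the clot. Hepatocytes make most of these proteins, and several of them, fibrinogen and C3 among them, are classical acute phase genes that inflammatory cytokines induce.

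Each library held between 28129883 and 38147534 counts. Levels are given as counts scaled to a common library total with TMM factors (CPM), on which scale 3 counts, the limit that a count of 0 allows, correspond to 0.078 to 0.107 CPM. This limit covers counting error only. Of 10 hepatocyte markers, 9 were found by symbol, none of these was at 0 in all libraries, and their summed level lay between 94675 and 143890 CPM. No library was counted as a duplicate, since the 30 within-group pairs had chi-square values of 24.9 to 219 for each degree of freedom, far above the sampling noise.

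AL replicates 4 and 5 stood apart, and many of the results below depend on them, those of fibrinogen, C3, C6 and C9 among them. The summed level of 14 acute phase markers other than the genes studied here reached 29220 and 45295 CPM there, and was 7459 to 7676 CPM in AL replicates 1 to 3, 7971 to 9798 CPM in IF16 and 8511 to 11106 CPM in EOD. Markers of neutrophils summed to 38 and 34.9 CPM in them and to at most 6 CPM in any other library. Of the 36 tested genes, 27 had their 2 highest AL values in these libraries, which is 75% against 17.5% of all tested genes. For 13 of the 36 (36.1% against 4.82% of all tested genes) they were above each of the other 13 libraries. These were C2, C4b, C6, C8a, C8b, C9, Cfi, Cpb2, Fga, Fgb, Fgg, Serping1 and Vtn, and none of the 36 was below all the others there. EOD replicate 5 was the lowest EOD library for 19 of the 36 (52.8% against 29.5% of all tested genes), and AL replicate 2 the lowest AL library for 25 (69.4% against 28.5%). The main results that involve AL are therefore given with and without AL replicates 4 and 5. These 2 libraries are left out for a level of transcripts that includes the response of this very gene class, so the fit without them describes the remaining 13 libraries and is no independent support.

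The promoters of the fibrinogen chains and of the coagulation genes with the smallest adjusted p between EOD and AL are shown first, because these genes carry most of the results. They are the 250 bases before the RefSeq transcript start in GRCm38.p6, written 5′ to 3′ on the strand of the gene, and 28 of the 37 genes had an entry. Capitals mark matches, on either strand, to 8 motifs, which are the sequences bound by C/EBP (TTGCNNAA), STAT (TTCNNNGAA), the type II interleukin-6 element (CTGGGAA), HNF1, HNF4 (AAAGTCCA), the core promoter factor TBP (TATAAA), the glucocorticoid receptor (ACANNNTGT) and E-box factors (CACGTG). The Fga promoter lies at chr3:83025903-83026152 on the plus strand, that of Fgb at chr3:83049864-83050113 on the minus strand, that of Fgg at chr3:83007474-83007723 on the plus strand, that of F5 at chr1:164151585-164151834 on the plus strand, that of F11 at chr8:45262032-45262281 on the minus strand and that of F13b at chr1:139501457-139501706 on the plus strand.
Fga: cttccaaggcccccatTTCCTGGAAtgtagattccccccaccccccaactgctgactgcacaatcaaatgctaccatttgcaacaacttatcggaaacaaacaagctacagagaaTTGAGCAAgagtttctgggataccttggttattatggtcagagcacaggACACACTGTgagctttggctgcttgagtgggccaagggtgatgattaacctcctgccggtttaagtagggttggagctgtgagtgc
Fgb: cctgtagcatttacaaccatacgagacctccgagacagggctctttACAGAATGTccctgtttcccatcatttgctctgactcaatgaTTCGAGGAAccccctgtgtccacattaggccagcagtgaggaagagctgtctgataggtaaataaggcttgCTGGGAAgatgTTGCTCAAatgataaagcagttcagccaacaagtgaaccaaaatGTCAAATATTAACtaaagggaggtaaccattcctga
Fgg: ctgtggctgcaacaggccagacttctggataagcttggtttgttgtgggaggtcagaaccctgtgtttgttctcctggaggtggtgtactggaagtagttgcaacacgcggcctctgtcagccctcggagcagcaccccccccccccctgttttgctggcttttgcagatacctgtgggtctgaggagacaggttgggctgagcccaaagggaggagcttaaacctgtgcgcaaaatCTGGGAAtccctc
F5: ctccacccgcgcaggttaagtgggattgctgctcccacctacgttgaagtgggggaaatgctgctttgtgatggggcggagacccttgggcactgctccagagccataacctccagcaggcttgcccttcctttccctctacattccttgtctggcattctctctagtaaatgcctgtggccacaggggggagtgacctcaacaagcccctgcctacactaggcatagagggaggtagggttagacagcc
F11: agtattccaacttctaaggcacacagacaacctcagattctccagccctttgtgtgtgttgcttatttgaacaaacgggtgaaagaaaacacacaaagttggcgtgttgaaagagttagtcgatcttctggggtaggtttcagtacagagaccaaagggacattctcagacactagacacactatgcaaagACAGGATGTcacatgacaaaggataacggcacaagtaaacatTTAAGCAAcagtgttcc
F13b: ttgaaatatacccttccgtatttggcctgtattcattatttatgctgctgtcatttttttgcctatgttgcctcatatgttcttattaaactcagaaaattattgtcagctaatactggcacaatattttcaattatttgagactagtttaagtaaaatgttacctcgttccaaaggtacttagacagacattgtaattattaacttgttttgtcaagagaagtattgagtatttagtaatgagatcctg

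In Fga the capitals mark, from left to right, a STAT match (TTCCTGGAA), a C/EBP match (TTGAGCAA) and a glucocorticoid match (ACACACTGT). In Fgb they mark a glucocorticoid match, a STAT match, the interleukin-6 element, a C/EBP match (TTGCTCAA) and an HNF1 match that ends 24 bases before the start. Fgg held the interleukin-6 element from 13 to 7 bases before the start, and F11 a glucocorticoid and a C/EBP match, whereas the windows of F5 and F13b held none of the 8. No marked match overlapped another. C/EBP matches were found in 7 of 28 windows (25%) against 9.57% of 32536 mouse promoters, STAT matches in 6 (21.4% against 7.04%), the interleukin-6 element in 4 (14.3% against 9.14%) and glucocorticoid matches in 4 (14.3% against 5.82%). HNF1 was matched in Fgb alone (3.57% against 0.237%), TATAAA in Vtn and Klkb1 (7.14% against 12.3%), and HNF4 and E-box in none (1.02% and 6.04% of all promoters). A match describes letters in this window and is not evidence of binding.

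Per length, in fragments scaled to transcript length and library total (FPKM), the transcripts of Fgb, Fgg and Vtn led the list. Mean FPKM over the 15 libraries was 1977 for Fgb (range 1267 to 3386), 1647 for Fgg (762 to 2601) and 1593 for Vtn, the adhesive protein vitronectin (1319 to 2172). Kng1, the precursor of bradykinin, followed at 1184, Serpinc1, antithrombin, at 1090 and C3 at 826. The ranges of these 6 overlapped from 1 gene to the next. Within a library, Vtn exceeded Kng1 in 15 of 15 libraries, Fgb exceeded Fgg in 13, Kng1 exceeded Serpinc1 in 12, Serpinc1 exceeded C3 in 12 and Fgg exceeded Vtn in 7, so the order of Fgg and Vtn was not constant. Fga, the alpha chain of fibrinogen, was lower than these 6 on average, at 711 FPKM. Among the coagulation proteases, F2, prothrombin, was at 542 FPKM, F12 at 255, F10 at 190, F9 at 56.8, F7 at 50.9 and F11 at 19.1. The lowest were C2 (6.69), Masp1 (3.9), Cfd (2.26) and Cfb (0.114). The share of all counts that fell on the 37 genes was 3.24% (SD 0.855, n = 5) for AL, 2.99% (SD 0.1, n = 5) for IF16 and 3.45% (SD 0.174, n = 5) for EOD. The AL share was 4.06% and 4.26% in replicates 4 and 5 and 2.38% to 2.79% in replicates 1 to 3.

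The values of some genes are uncertain for reasons of annotation. In GENCODE M21, the exons of Cfb share 79.5% of their bases and those of C2 42.8% with Gm20547, a gene on the same strand that was at 0 counts in every library. Cfb and C2 lie 85 bases apart on chromosome 17, and the rule by which the authors assigned reads shared by overlapping genes was not given in the sources used here. Cfb had 3 to 26 counts per library, near the limit that a count of 0 allows in some. In the deposited table, 99.1% of the span of Klkb1, plasma prekallikrein, falls within Cyp4v3 on the same strand. The Ensembl identifier under which the table lists Klkb1 has the symbol Gm45753 in GENCODE M21, where Klkb1 has another identifier, so it is uncertain which gene model the Klkb1 values measure. Masp2, a protease of the lectin route, shares 54.9% of its exon bases with Tardbp on the opposite strand, and Serpinc1 shares 34.4% with Zbtb37, also opposite, while the strand setting of the counting is not given. C4b and C4a, and Kng1 and Kng2, are close copies between which reads could have been split.

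**Figure D1:**
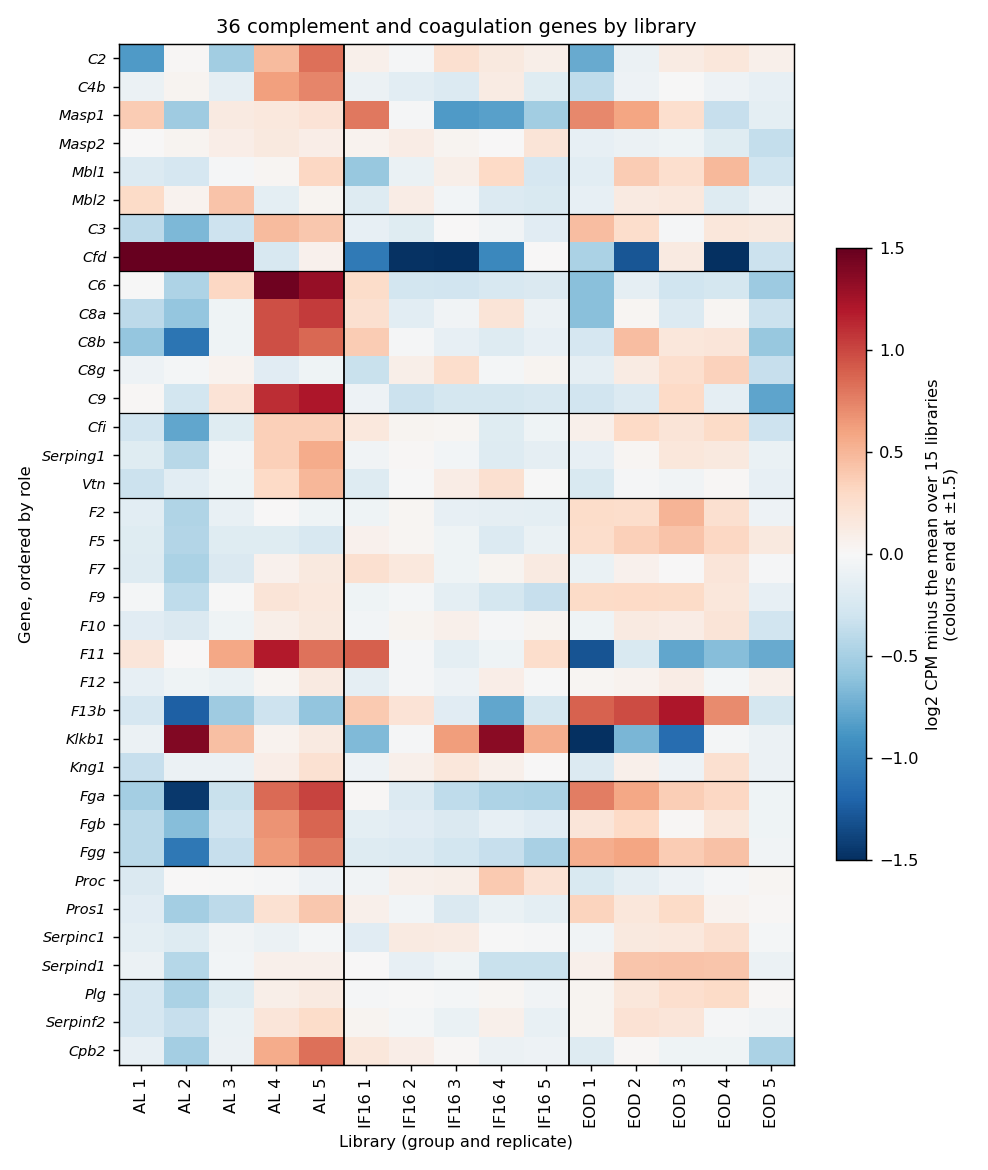
Levels of the 36 tested genes (rows, grouped by role: classical and lectin complement, C3 and factor D, terminal complement, complement inhibitors, coagulation enzymes and cofactors, fibrinogen, anticoagulants, fibrinolysis) in each of the 15 libraries (columns). Colour is log2 CPM minus the mean of the gene over the 15 libraries, and ends at ±1.5. AL replicates 4 and 5 stand out as high for most complement genes and fibrinogen, and EOD for F5 and F13b.

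The first question was what every-other-day fasting changed against ad libitum feeding. Clotting factors moved in both directions. F5, F2, F13b and Serpind1 were higher in EOD, and F11, C6, C9, Cfd and Masp2 were lower. These 9 of 36 genes past an adjusted p of 0.05 (edgeR quasi-likelihood test, Benjamini-Hochberg adjustment over 13837 genes) are 25%, against 35.2% of all tested genes, so the class was not called more often than the genome at large. By direction, 4 of 36 rose (11.1% against 17.6% of all genes) and 5 fell (13.9% against 17.6%). The median log2 fold change of the 36 was 0.07, against -0.01 for all tested genes. In bulk tissue, a change in the number of hepatocytes and a change in the RNA of each cell cannot be told apart.

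F5, coagulation factor V, is the cofactor that speeds the cutting of prothrombin by factor Xa (chromosome 1, 164151838 to 164220277, mm10). It was measured at 312, 260, 310, 311 and 298 CPM in AL replicates 1 to 5, at 370, 361, 338, 305 and 330 CPM in IF16 and at 425, 451, 473, 436 and 392 CPM in EOD. Every EOD library lay above every AL and every IF16 library, and AL and IF16 overlapped. The log2 fold change was 0.55 (SE 0.09, adjusted p = 0.000247), and 0.59 without AL replicates 4 and 5 (adjusted p = 0.00123). F5 kept its call in all 15 fits that left out 1 library.

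F2, prothrombin, the precursor of thrombin (chromosome 2, 91625320 to 91636414), was at 1524, 1243, 1571, 1705 and 1629 CPM in AL, 1622, 1726, 1562, 1547 and 1529 CPM in IF16, and 2052, 2036, 2416, 2013 and 1612 CPM in EOD. EOD replicate 5 fell within the AL range and the other 4 EOD libraries above it. Prothrombin transcripts rose 1.32 fold in EOD (log2 0.40, SE 0.11, adjusted p = 0.0104; 0.52, adjusted p = 0.00812, without AL replicates 4 and 5).

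F13b encodes the carrier subunit of factor XIII, the transglutaminase that cross-links fibrin (chromosome 1, 139501707 to 139523756). Its AL values were 87, 44, 71.4, 83.4 and 68.7 CPM, its IF16 values 135, 119, 91.5, 60.3 and 85.8 CPM, and its EOD values 191, 203, 240, 169 and 85.9 CPM. All EOD libraries but replicate 5 lay above all AL and IF16 libraries. With a 2.5-fold increase (log2 1.32, SE 0.26, adjusted p = 0.00136; 1.43, adjusted p = 0.00593, without AL replicates 4 and 5), it had the largest log2 increase among the 36 genes in both fits.

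F11 encodes factor XI, a protease of the contact pathway that activates factor IX (chromosome 8, 45241170 to 45262031). It was at 43.6, 38.8, 57.8, 88.1 and 67.9 CPM in AL, 71.6, 38, 35, 36.9 and 46.3 CPM in IF16 and 15.7, 33, 22.5, 24.8 and 22.8 CPM in EOD. Every EOD library lay below every other library. F11 fell 2.49 fold in EOD (log2 -1.32, SE 0.25, adjusted p = 0.00101), and 1.93 fold without AL replicates 4 and 5, its highest AL libraries (adjusted p = 0.00853). Its neighbour Klkb1, 7.41 kb away, encodes another contact protease and ranged from 40.2 to 112 CPM in AL and from 12 to 41.8 CPM in EOD, with a log2 fold change of -1.11 that did not pass (SE 0.42, adjusted p = 0.0541; -1.30, adjusted p = 0.0591, without AL replicates 4 and 5). Klkb1 did pass in DESeq2 (adjusted p = 0.036), with the filter of 1 CPM in edgeR (0.0489) and in limma with a minimum mean FPKM (0.0373 and 0.0324). The ratio of the pair was not constant, since log2 of F11 over Klkb1 FPKM ran from -1.41 to 1.56 over the libraries.

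Serpind1, heparin cofactor II, an inhibitor of thrombin (chromosome 16, 17331371 to 17343575), was at 371, 293, 384, 415 and 418 CPM in AL, 398, 363, 379, 313 and 313 CPM in IF16 and 417, 528, 533, 525 and 371 CPM in EOD. EOD replicates 2 to 4 exceeded every AL library and the other 2 did not. The log2 fold change of 0.34 was just past the threshold (SE 0.13, adjusted p = 0.0482), was past it in 6 of 15 fits with 1 library left out, and was 0.47 without AL replicates 4 and 5 (adjusted p = 0.0255). Serpind1 lies wholly within the span of Pi4ka on the opposite strand, with no exon bases shared. Pi4ka rose in EOD as well (log2 0.41, adjusted p = 0.00201), and its part in the Serpind1 result was not tested.

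**Figure D2:**
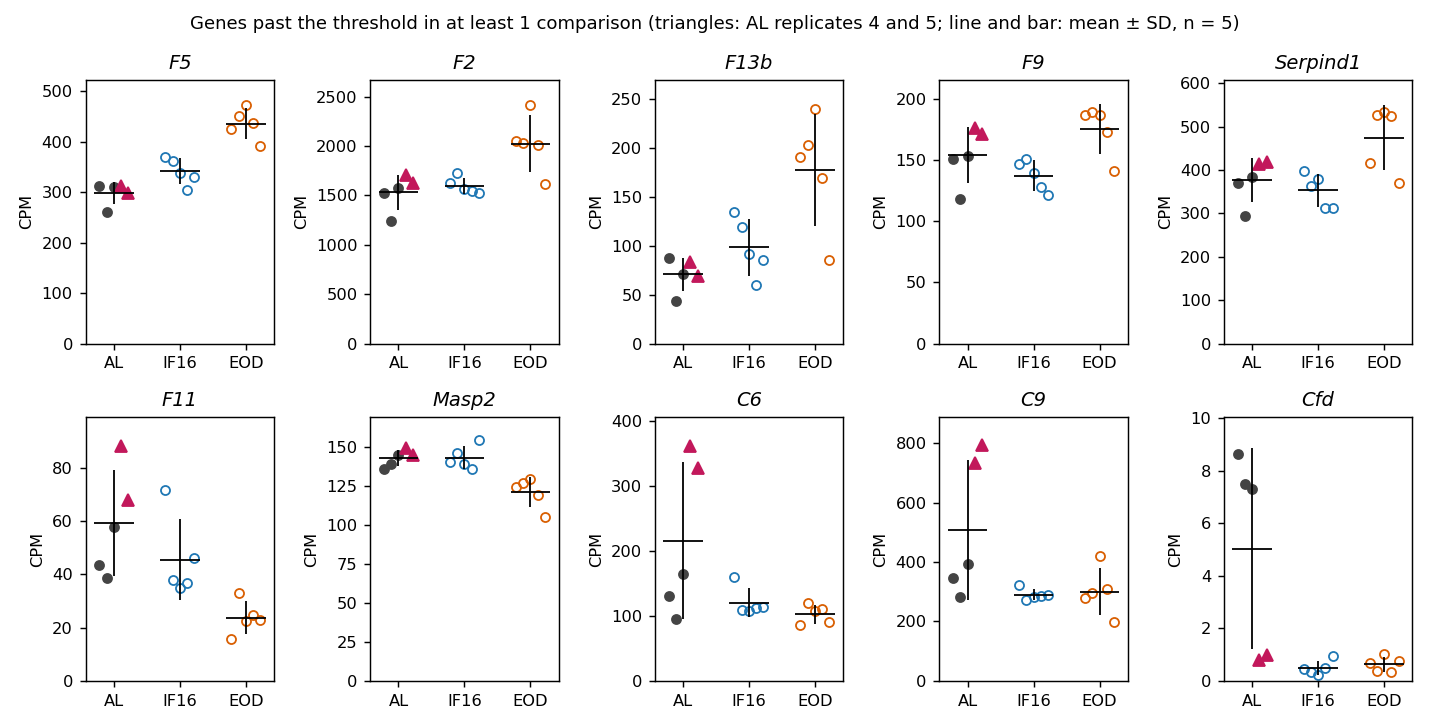
CPM (vertical axes, each from 0) of the 10 genes past the threshold in at least 1 comparison, by group. Circles are single libraries, triangles AL replicates 4 and 5, and the line and bar the mean and SD of 5 libraries; EOD separates from both other groups for F5, F11 and Masp2, while C6 and C9 are high in the 2 triangles only and Cfd is high in the other 3 AL libraries only.

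The 5 remaining coagulation enzymes and cofactors did not pass between EOD and AL with all libraries. F7, the protease that binds tissue factor, F9, F10, F12 and Kng1 had log2 fold changes from 0.02 (Kng1) to 0.19 (F9). Without AL replicates 4 and 5, F7 passed (log2 0.34, SE 0.11, adjusted p = 0.0277), with AL replicates 1 to 3 at 67.8 to 82.4 CPM and EOD at 88 to 107 CPM. F12, factor XII, was among the steadiest of all 37 genes, with a ratio of highest to lowest library of 1.2 (455 to 548 CPM).

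The fibrinogen chains did not pass between EOD and AL with all libraries, and rose together without AL replicates 4 and 5. Fga, the alpha chain, which carries the fibrinopeptide A that thrombin removes, was at 1531, 801, 1731, 3935 and 4406 CPM in AL, 2217, 1890, 1674, 1587 and 1568 CPM in IF16 and 3719, 3276, 2820, 2714 and 2085 CPM in EOD. Fgb, the beta chain, was at 2379, 2024, 2569, 5021 and 5736 CPM in AL, 2848, 2787, 2710, 2876 and 2791 CPM in IF16 and 3579, 3879, 3193, 3529 and 3000 CPM in EOD. Fgg, the gamma chain, was at 1840, 1158, 1916, 3775 and 4191 CPM in AL, 2126, 2104, 2008, 1923 and 1738 CPM in IF16 and 3558, 3668, 3157, 3314 and 2356 CPM in EOD. For each chain, AL replicates 4 and 5 exceeded all 5 EOD libraries and AL replicates 1 to 3 lay below all 5.

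With all libraries, the log2 fold changes of EOD over AL were 0.24 for Fga (SE 0.35, adjusted p = 0.636), -0.05 for Fgb (SE 0.23, adjusted p = 0.898) and 0.32 for Fgg (SE 0.27, adjusted p = 0.375). Against AL replicates 1 to 3 alone they were 1.14 for Fga (SE 0.23, adjusted p = 0.00192), 0.59 for Fgb (SE 0.12, adjusted p = 0.00163) and 1.0 for Fgg (SE 0.17, adjusted p = 0.000635). The direction of Fgb thus turned with these 2 libraries. The 3 genes lie within 1 stretch of chromosome 3, with 11.1 kb between Fgg and Fga and 8.63 kb between Fga and Fgb, so they are not independent of position.

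The balance of the chains was described by log2 ratios of FPKM within a library, with no test. Fgg over Fgb was -0.73 to -0.3 in AL, -0.61 to -0.33 in IF16 and -0.28 to 0.06 in EOD, so that no EOD library fell within the range of another group. Fga over Fgb was -2.37 to -1.38 in AL, -1.89 to -1.39 in IF16 and -1.56 to -0.98 in EOD, which overlapped. In AL replicates 4 and 5, where all 3 transcripts were high, Fgg over Fgb was -0.34 and -0.38, within the values of AL replicates 1 to 3. Fga over Fgg had a mean of -1.26 in AL, -1.26 in IF16 and -1.25 in EOD.

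**Figure D3:**
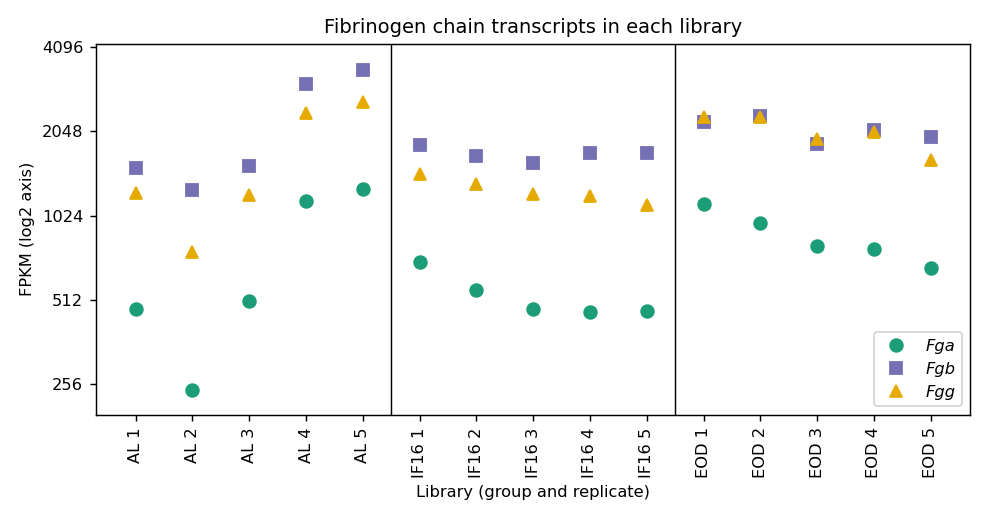
FPKM (log2 axis) of Fga, Fgb and Fgg in each library, with vertical lines between AL, IF16 and EOD. The chains are highest in AL replicates 4 and 5 (Fgb 3012 and 3386 FPKM), Fgb is nearly level across IF16 (1575 to 1838 FPKM), and Fgg meets Fgb in EOD.

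Among the inhibitors and enzymes of clot removal, Plg, plasminogen, was just short of the threshold in edgeR with all libraries (log2 0.28, SE 0.11, adjusted p = 0.0626). It passed there with the filter of 1 CPM (0.0445), in DESeq2 (0.0361) and in 3 limma fits (0.0254 to 0.0443), and without AL replicates 4 and 5 it was at 0.48 (adjusted p = 0.00386), with AL replicates 1 to 3 at 1444 to 1764 CPM and EOD at 2033 to 2444 CPM. The same change of fit brought in Pros1, protein S, the cofactor of activated protein C (0.22 to 0.56, adjusted p = 0.00262), and Serpinf2, antiplasmin (0.11 to 0.34, adjusted p = 0.0288). Proc, protein C itself, was at a log2 fold change of -0.02 and Serpinc1 at 0.20 with all libraries (adjusted p = 0.888 and 0.11 in edgeR; Serpinc1 was at 0.0485 in DESeq2 and at 0.0446 and 0.0409 in limma with a minimum mean FPKM). Cpb2, a carboxypeptidase that protects fibrin from plasmin, was at -0.36 (adjusted p = 0.152) and at 0.11 without the 2 libraries, where it did not pass either (adjusted p = 0.57).

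Among the complement genes, the lower values in EOD came from the terminal pathway, C3 activation and the lectin route. C6, which binds C5b to start the pore (chromosome 15, 4727175 to 4815456), was at 131, 95.3, 164, 362 and 327 CPM in AL, 160, 109, 108, 112 and 113 CPM in IF16 and 85.4, 120, 107, 110 and 90 CPM in EOD. C9, which polymerises into the pore (chromosome 15, 6445327 to 6498751), was at 345, 281, 394, 733 and 792 CPM in AL, 324, 273, 283, 284 and 289 CPM in IF16 and 278, 296, 419, 310 and 197 CPM in EOD. Both overlapped between EOD and AL replicates 1 to 3, and AL replicates 4 and 5 were above every other library.

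C6 fell 2.1 fold in EOD (log2 -1.07, SE 0.30, adjusted p = 0.0122) and C9 fell 1.7 fold (log2 -0.76, SE 0.26, adjusted p = 0.0298). Without AL replicates 4 and 5 neither passed, at -0.31 (adjusted p = 0.187) and -0.15 (adjusted p = 0.558). The call of C9 also ended without AL replicate 4 alone, AL replicate 5 alone, or EOD replicate 1, 2, 4 or 5. C8a, C8b and C8g, which encode the subunits of C8, did not pass, at -0.56, -0.19 and 0.13. Without AL replicates 4 and 5, C8a and C8b changed sign. The 3 genes were then at 0.16, 0.59 and 0.12 and did not pass either (adjusted p = 0.49, 0.0723 and 0.614). C8b and C8a lie 11.1 kb apart on chromosome 4 and were both high in AL replicates 4 and 5, at 409 and 381 CPM and at 901 and 952 CPM. C8g, on chromosome 2, was at 521 and 561 CPM there, within the 461 to 747 CPM of all libraries, and log2 of C8g over C8b FPKM was 1.31 and 1.52 against 2.56 to 3.52 in the other AL libraries.

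C3, the convergence point of the cascade (chromosome 17, 57203970 to 57228136), was at 3169, 2594, 3342, 5762 and 5495 CPM in AL, 3806, 3660, 4158, 3989 and 3703 CPM in IF16 and 5706, 4994, 4099, 4650 and 4610 CPM in EOD. AL replicates 1 to 3 lay below every IF16 and EOD library, and AL replicates 4 and 5 reached the top of the EOD range. It did not pass with all libraries (log2 0.24, SE 0.18, adjusted p = 0.317) and rose 1.62 fold against AL replicates 1 to 3 (log2 0.69, SE 0.13, adjusted p = 0.00094). Cfi, factor I, the protease that inactivates C3b, likewise passed in that fit only (0.17 to 0.55, adjusted p = 0.0156). Serping1, the C1 inhibitor, and Vtn did not pass in either fit.

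Masp2, which cleaves C4 and C2 after lectin binding (chromosome 4, 148602554 to 148615499), was at 136, 139, 145, 149 and 145 CPM in AL, 140, 146, 139, 136 and 154 CPM in IF16 and 124, 127, 129, 119 and 105 CPM in EOD. No EOD library reached the range of another group, although the fall was small (log2 -0.24, SE 0.08, adjusted p = 0.0269). It was past the threshold in 8 of 15 fits with 1 library left out and not without AL replicates 4 and 5 (-0.19, adjusted p = 0.183). Tardbp, which shares exon bases with Masp2 on the other strand, rose (log2 0.39, adjusted p = 0.0229), and its part in the Masp2 result was not tested. Of the other classical and lectin genes, none passed in either edgeR fit: C2, C4b, Masp1, Mbl1 and Mbl2 ran from -0.41 (C4b, adjusted p = 0.0501, and 0.0401 in DESeq2) to 0.18 with all libraries.

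**Figure D4:**
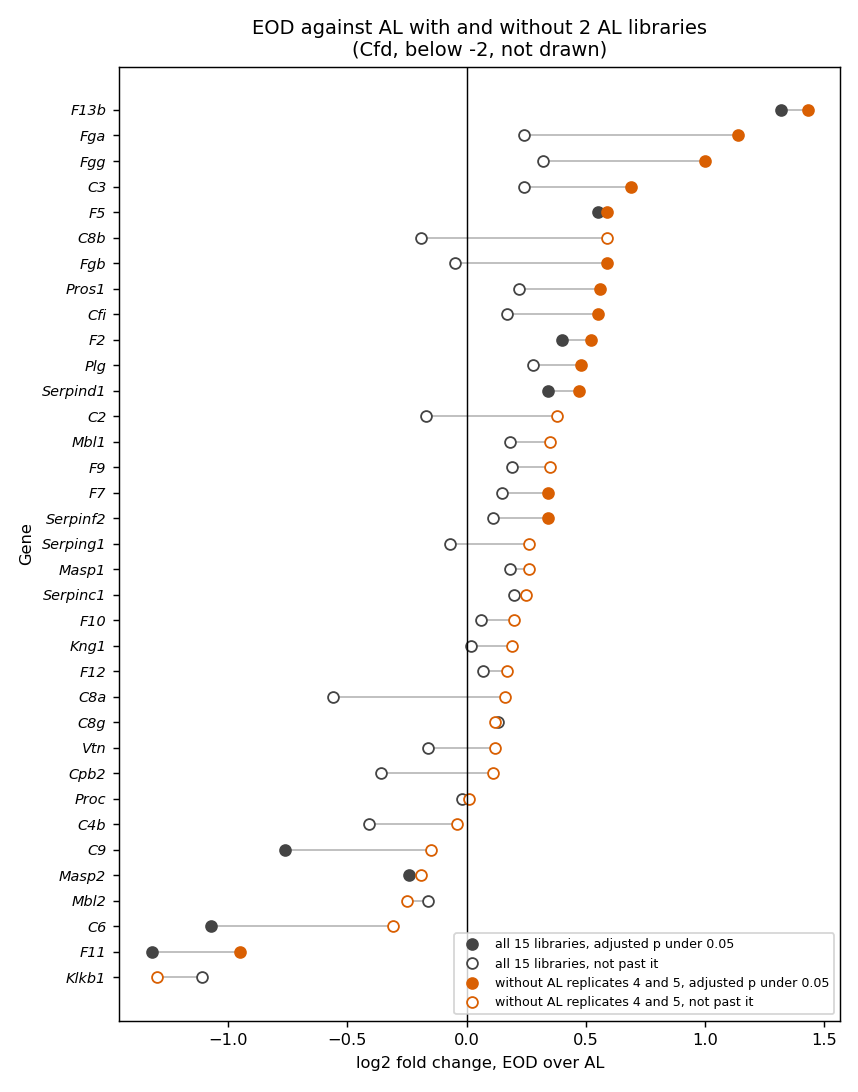
Log2 fold change of EOD over AL for 35 genes (rows), with all 15 libraries (dark) and without AL replicates 4 and 5 (orange). Filled points have an adjusted p under 0.05. Most genes shift to the right without these libraries, and F5, F13b, F2, Serpind1 and F11 are filled in both fits. Cfd, far below the axis range, and Cfb, tested in only 1 of the fits drawn, are not shown.

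Without AL replicates 4 and 5, 15 of 37 genes passed between EOD and AL (40.5%, against 30.3% of 14205 tested genes), of which 13 rose (35.1% against 16.4%) and 2 fell (5.41% against 13.9%). The genes higher in both fits were F5, F2, F13b and Serpind1, and those lower in both were F11 and Cfd. The 9 that were added were C3, Cfi, F7, Fga, Fgb, Fgg, Plg, Pros1 and Serpinf2, and C6, C9 and Masp2 were lost. The median log2 fold change of the 37 was 0.26, against 0.02 for all tested genes. The fit to the EOD and AL libraries alone called 6 of 36 (16.7% against 30.4%), of which F13b, F2 and F5 rose (8.33% against 15.2%) and C6, Cfd and F11 fell (8.33% against 15.2%).

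The second question was how EOD differed from IF16, a comparison in which AL enters through the shared estimate of the spread and the filter on low counts. F5, F2, F13b, F9 and Serpind1 were higher in EOD than in IF16 and F11 and Masp2 were lower, 7 of 36 genes (19.4%, against 16.1% of all tested genes). Of these, 5 rose (13.9% against 7.96%) and 2 fell (5.56% against 8.15%). By side of the list, 6 of 20 coagulation genes passed (30%) and 1 of 16 complement genes (6.25%), a difference that was not tested; between EOD and AL both shares were 25%. The median log2 fold change was 0.09, against -0.003 for all tested genes. No terminal complement gene and no complement inhibitor passed in edgeR, where C8a had the largest difference among them (log2 -0.24, adjusted p = 0.597).

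F5 rose 1.28 fold (log2 0.35, SE 0.09, adjusted p = 0.0135) and was the only one of these genes past the threshold in all 15 fits with 1 library left out. F13b rose 1.81 fold (log2 0.85, SE 0.26, adjusted p = 0.0362, past the threshold in 9 of 15 fits), F2 1.27 fold (adjusted p = 0.0444, 7 of 15) and Serpind1 1.34 fold (adjusted p = 0.0299, 10 of 15). F9, factor IX, the protease missing in haemophilia B (chromosome X, 59999464 to 60030759), was at 151, 118, 153, 176 and 171 CPM in AL, 147, 151, 139, 128 and 121 CPM in IF16 and 187, 189, 187, 173 and 141 CPM in EOD. EOD replicate 5 alone fell within the IF16 range, and AL overlapped both groups, with EOD replicates 1 to 3 above every AL library. F9 rose 1.28 fold over IF16 (log2 0.36, SE 0.12, adjusted p = 0.0446, 8 of 15).

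F11 fell 1.92 fold from IF16 to EOD (log2 -0.94, SE 0.25, adjusted p = 0.0191) and of the fits with 1 library left out lost its call in that without EOD replicate 1, its lowest library (-0.82, adjusted p = 0.051). Masp2 fell 1.19 fold (log2 -0.25, adjusted p = 0.0456), and was past the threshold in 1 of 15 such fits. Ranges of EOD and IF16 did not overlap for 5 of 36 genes (13.9%, against 10.9% of all tested genes). F5, Fgb and Fgg lay above (8.33% against 4.63%) and F11 and Masp2 below (5.56% against 6.26%). Between EOD and AL there were 3 such genes (8.33% against 18.6%), F5 above (2.78% against 8.46%) and F11 and Masp2 below (5.56% against 10.2%).

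Fibrinogen in EOD against IF16 depended on which libraries set the spread. Fga, Fgb and Fgg had log2 fold changes of 0.71, 0.29 and 0.70 (SE 0.36, 0.23 and 0.27; adjusted p = 0.189, 0.407 and 0.0849). The fit to these 2 groups alone gave 0.72, 0.30 and 0.71, and all 3 passed (adjusted p = 0.00646, 0.0487 and 0.00226). They also passed without AL replicates 4 and 5 (0.73, 0.32 and 0.72; adjusted p = 0.0168, 0.0399 and 0.00394), a fit in which 10 of 37 genes passed (27% against 16.8%), 9 higher (24.3% against 9.11%) and 1 lower (2.7% against 7.66%). The fold changes were nearly the same in the 3 fits, and the AL coefficient of variation that enters the shared spread was 64.1% for Fga, against 15.2% in IF16 and 21% in EOD. In the fit to these 2 groups, 9 genes passed (25% against 16.6%), of which 8 rose (22.2% against 8.77% of all genes) and F11 alone fell (2.78% against 7.86%). C3 passed only without AL replicates 4 and 5 (0.34, adjusted p = 0.0414; 0.32, adjusted p = 0.246, with all libraries).

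The third question was what 16-h fasting changed against ad libitum feeding. Of 36 genes 1 passed, Cfd, which was lower in IF16 (2.78%, against 3.5% of all tested genes called and 2.1% called lower), and none rose (against 1.4%). The DESeq2 Wald test called C6 and C9 in addition to Cfd, among 937 genes that it called in this comparison. Without AL replicates 4 and 5, Cfd alone passed again (2.7%, against 2.59% of all genes called and 1.73% called lower), and none rose (against 0.859%). The median log2 fold change was -0.06 with all libraries and 0.18 without these 2, against 0 and 0.02 for all tested genes. F5 was at 0.19 (adjusted p = 0.264), Mbl2, a mannose-binding lectin, at -0.25 (adjusted p = 0.254) and Proc at 0.21 (adjusted p = 0.246). Without these 2 libraries they were at 0.22, -0.36 and 0.23 and did not pass either (adjusted p = 0.342, 0.148 and 0.345). With all libraries, no IF16 range was clear of the AL range for any of the 36 (against 5.78% of all tested genes, 2.59% above and 3.19% below).

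Cfd encodes factor D, or adipsin, the protease that cuts factor B to form the alternative C3 convertase, and is known mainly as a product of fat cells (chromosome 10, 79890853 to 79892656). It was at 8.64, 7.49, 7.31, 0.795 and 0.979 CPM in AL, 0.451, 0.336, 0.23, 0.48 and 0.945 CPM in IF16 and 0.676, 0.386, 1.03, 0.331 and 0.752 CPM in EOD. AL replicates 1 to 3 were high, while AL replicates 4 and 5 were within the range of the fasted groups. Cfd fell 10.1 fold in IF16 (log2 -3.34, SE 0.65, adjusted p = 0.0113) and 7.98 fold in EOD (log2 -3.00, SE 0.63, adjusted p = 0.00232). It held in all 15 fits with 1 library left out in both comparisons, and the log2 fold changes were -3.96 and -3.60 without AL replicates 4 and 5. EOD and IF16 differed by 0.35 (SE 0.70, adjusted p = 0.775).

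Fat cell markers were set beside Cfd. All 9 such genes were found, of which 2 had enough counts to be tested in the fit to all libraries, and their summed level was 27.1 to 36.4 CPM in AL, 14.3 to 23 CPM in IF16 and 10.5 to 16.1 CPM in EOD. Most of the sum came from Nrg4 and Fabp4, and it was 28.7 and 33.5 CPM in AL replicates 4 and 5, where Cfd was low. Retn, resistin, was highest in the same 3 libraries as Cfd, at 0.401, 0.345 and 0.881 CPM in AL replicates 1 to 3 and at most 0.138 CPM elsewhere. Fabp4 was at 10.6, 6.8 and 12.8 CPM in AL replicates 1 to 3, against 3.04 and 3.31 CPM in AL replicates 4 and 5, while the fasted groups ranged from 6.38 to 11.2 CPM. Adipoq, adiponectin, was at 1.06, 0 and 2.35 CPM in AL replicates 1 to 3, and Plin1 and Lep were also at 0 in AL replicate 2, where Cfd was at 7.49 CPM. Cidea, a lipid droplet gene that fatty livers also express, was at 7.01, 8.36 and 0.228 CPM in the same 3 libraries and did not exceed 0.462 CPM elsewhere. Without AL replicates 4 and 5, 5 of the 9 could be tested, Retn only and Cidea and Adipoq mainly through their AL values. In that fit Cidea and Retn were lower in IF16, and Nrg4, Retn, Cidea and Adipoq in EOD. For Cidea, Retn and Adipoq the filter itself favoured a call as lower under fasting, so these calls are no support. Nrg4 went the other way within AL, at 9.1, 11.6 and 18.1 CPM in AL replicates 1 to 3 and 25.4 and 30 CPM in AL replicates 4 and 5. Of the 9 markers, Retn alone was higher in each of AL replicates 1 to 3 than in every other library. The part of fat cells in the Cfd result was not tested.

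The rest of the pathways was followed in lists chosen with earlier results of these data known. Of 13 other complement components, 2 rose and 2 fell in EOD against AL (30.8% called, against 35.2% of all tested genes), and 4 rose and 2 fell without AL replicates 4 and 5 (46.2% against 30.3%). C4a, the close copy of C4b, had the largest change, from 88.8 CPM (SD 39.4, n = 5) in AL and 37.4 CPM (SD 17.9, n = 5) in IF16 to 10.5 CPM (SD 2.5, n = 5) in EOD (log2 -3.08, SE 0.39, adjusted p = 5.82e-05; -2.65, adjusted p = 0.000219, without AL replicates 4 and 5), and fell against IF16 as well (-1.83, adjusted p = 0.00512). C4b itself was 619 to 882 CPM in all IF16 and EOD libraries. Colec11, a collectin of the lectin route that is also a stellate cell marker, rose (0.73, adjusted p = 0.000259), and C1rl, a C1r-like protease, fell (-0.52, adjusted p = 0.00053). Colec11 was at 0.59 (adjusted p = 0.00193) and C1rl at -0.48 (adjusted p = 0.00548) without AL replicates 4 and 5. In IF16 against AL none of the 13 passed in edgeR, Colec11 being nearest (0.44, adjusted p = 0.0515).

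Markers of stellate cells were set beside Colec11, which was itself in that list and is left out of these values. Of the 7 others 4 rose in EOD against AL, with and without AL replicates 4 and 5 (57.1%, against 17.6% and 16.4% of all tested genes), with summed levels of 108 to 184 CPM in AL, 136 to 190 CPM in IF16 and 200 to 266 CPM in EOD. Of 8 sinusoidal endothelial markers 6 rose in EOD (75% against 17.6%) and 5 in IF16 (62.5% against 1.4%). Without AL replicates 4 and 5, 6 rose in EOD (75% against 16.4%) and 4 in IF16 (50% against 0.859%). Their summed levels were 96.9 to 167 CPM in AL, 201 to 220 CPM in IF16 and 189 to 233 CPM in EOD. These cells also make factor VIII, and F8, named here after its values were seen, rose in EOD (0.60, adjusted p = 0.0116; 0.44, adjusted p = 0.0683, without AL replicates 4 and 5). The part of these cells in either result was not tested.

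Of 15 complement regulators and receptors, 1 rose and 2 fell in EOD against AL (20% called against 35.2%). Without AL replicates 4 and 5, 4 rose and 2 fell (40% called against 30.3%). With all libraries the genes called were Cd55, the decay accelerating factor (0.81, adjusted p = 0.00114), Cpn1, a carboxypeptidase that trims anaphylatoxins (-0.46, adjusted p = 0.00103), and Itgax, a complement receptor subunit (-1.19, adjusted p = 0.00889). All 3 passed without AL replicates 4 and 5 as well (0.74, -0.47 and -1.19; adjusted p = 0.00837, 0.00452 and 0.0252). Cd55 also rose in IF16 (0.65, adjusted p = 0.0342; 0.55, adjusted p = 0.142, without AL replicates 4 and 5).

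Of 16 tested genes among 19 others of coagulation and fibrinolysis, 4 rose and 3 fell in EOD against AL (43.8% called against 35.2%). In the fit without AL replicates 4 and 5, 2 rose and 4 fell (37.5% against 30.3%), with F8 and Tfpi no longer higher and Vwf and F3 newly lower. Hrg, a histidine-rich plasma protein (0.37, adjusted p = 0.0071), rose, and Gas6, a vitamin K-dependent ligand (-0.47, adjusted p = 0.00534), fell. In the fit without AL replicates 4 and 5 Hrg was at 0.54 (adjusted p = 0.000961) and Gas6 at -0.43 (adjusted p = 0.0165), and Hrg was then also higher in IF16 than in AL (0.47, adjusted p = 0.0169).

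Among 6 genes of vitamin K-dependent carboxylation and of secretion, the cargo receptor for factors V and VIII moved in opposite parts. Lman1, its lectin subunit, was at 159 to 183 CPM in AL, 148 to 191 CPM in IF16 and 104 to 127 CPM in EOD and fell (log2 -0.58, adjusted p = 0.000231 against AL; -0.56, adjusted p = 0.000988 against IF16). Mcfd2, the partner subunit, rose (0.43, adjusted p = 0.0142; 0.65, adjusted p = 0.00256). Ggcx, the carboxylase that factors II, VII, IX and X and proteins C and S need, fell (-0.34 in both comparisons, adjusted p = 0.00357 and 0.00926). All 3 also passed against AL without AL replicates 4 and 5 (Lman1 -0.58, Mcfd2 0.54, Ggcx -0.30; adjusted p = 0.00185, 0.0136 and 0.0286). In IF16 against AL none of the 6 passed in edgeR, Furin being nearest (-0.30, adjusted p = 0.272).

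Of 15 regulators of these genes, Ppara rose in all 3 comparisons, and was at 18.4 to 30.7 CPM in AL, 34.1 to 37.6 CPM in IF16 and 42.4 to 50.4 CPM in EOD, with no overlap between groups. Its log2 fold changes were 0.49 for IF16 over AL (adjusted p = 0.0222; 0.34, adjusted p = 0.109, without AL replicates 4 and 5), 0.92 for EOD over AL (adjusted p = 1.93e-05; 0.79, adjusted p = 0.000117, without them) and 0.42 for EOD over IF16 (adjusted p = 0.0178). Cebpa, a C/EBP factor, fell in IF16 (-0.52, adjusted p = 0.0276, and -0.64, adjusted p = 0.0178, without the 2 libraries). In EOD against AL Cebpa was at -0.30 (adjusted p = 0.076), and it was called lower there without the 2 libraries. Il6ra, the interleukin-6 receptor chain, rose in EOD against AL (1.06, adjusted p = 0.0367; 1.59, adjusted p = 0.00848, without them). Nr1h4, the bile acid receptor FXR, fell in EOD against IF16 (-0.41, adjusted p = 0.0242) and against AL (-0.31, adjusted p = 0.0467), the latter not without AL replicates 4 and 5 (-0.35, adjusted p = 0.0695).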

How the data were processed

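Liver poly-A RNA was sequenced in 15 libraries, 5 per feeding group, prepared, per the labels, with the NEBNext Ultra kit. The authors deposited raw counts per Ensembl gene and FPKM values, per the file headers. Recomputing FPKM from the deposited counts, gene lengths and library totals returned 100% of the values (relative tolerance 1e-08). The submitters' processing notes name STAR 2.5, HTSeq 0.6.1, DESeq2 and mm10, with no role or order, and the strand setting was not given in the sources used here.

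Counts were tested with edgeR 4.0.16 in R 4.3.3. The filter filterByExpr at a minimum count of 10 left 13837 of 35275 genes, TMM factors scaled the libraries, and all 15 entered 1 fit with a mean per group. Contrasts between groups used the quasi-likelihood F test (glmQLFit with robust dispersion, glmQLFTest), with Benjamini-Hochberg adjustment over all tested genes and a threshold of 0.05. The fit was also run on simulated counts with known fold changes. Those counts held no AL libraries set apart from their group, so that run does not bear on the split within AL. SEs were derived as the absolute log2 fold change over the square root of F. FPKM were used to order genes per length and for ratios. The replicate numbers are those of the labels.

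All 37 genes are accounted for. Genes past the threshold, the fibrinogen chains, C3 and Cfd are given in every library and the others by ranges. From each other list, at most 3 genes with the smallest p among those past the threshold are named, or 1 where none passed; 2 genes that this rule would name are not reported here. The genes and lists were chosen with earlier results of these data known. Alternatives were DESeq2 1.42.0 (size factors or Wald test), no expression filter or one of 1 CPM in 5 libraries, a fit to the 2 groups alone, a block for the replicate number, leaving out each library or AL replicates 4 and 5, and limma 3.58.1 on log2 FPKM (pseudocount 1 or 0.1, minimum mean 0.5 or none). Promoters are those of RefSeq, matched by symbol.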

Additional observations from a re-analysis of the deposited data

Results flagged for a closer look

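Within each group of 5 libraries, the highest or lowest value of each of the 37 genes was checked for a gap to the nearest other library above 0.71 of the group's range, which chance passes in about 5% of groups. Of 111 groups 5 passed, close to that share. Cfb was at 0.553 CPM in AL replicate 4, whereas the other AL libraries held 0.173 to 0.27 CPM, all of them near the limit that a count of 0 allows. C6 was at 160 CPM and C8b at 273 CPM in IF16 replicate 1, against 108 to 113 and 183 to 208 CPM in the other IF16 libraries. F5 was at 260 CPM in AL replicate 2, below the 298 to 312 CPM of the remaining AL libraries. Klkb1 was at 112 CPM in the same library and at 40.2 to 58.6 CPM in the others.

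The effects of the 2 fasting regimens against their common AL group differed by a direct test, EOD against IF16, for 7 genes. The difference in log2 was 0.35 for F5, 0.34 for F2, 0.85 for F13b, 0.36 for F9 and 0.43 for Serpind1, all higher in EOD. It was -0.94 for F11 and -0.25 for Masp2. F5 differed from IF16 in every EOD library, whereas EOD replicate 5 overlapped IF16 for F2, F13b, F9 and Serpind1.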

How the results depend on the processing

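Of 2697 single-gene results under the alternatives, 2552 kept their direction and side of the threshold, 90 no longer passed, 54 newly passed and 1 turned, that of Fgb in EOD against AL, from -0.05 to 0.59 without AL replicates 4 and 5. With 1 library left out, genes called ranged from 241 to 619 in IF16 against AL (484 with all libraries; 269, 241 and 254 without IF16 replicates 2, 3 and 5), from 3913 to 5726 in EOD against AL (4867) and from 1418 to 3383 in EOD against IF16 (2229; 1418, 1460 and 3383 without IF16 replicate 5, EOD replicate 1 and EOD replicate 5). Of the complement and coagulation genes, 1 to 3 were lower in IF16 than in AL (3 without AL replicate 2). In EOD against AL 3 to 7 were higher (7 without EOD replicate 5) and 3 to 8 lower (8 without AL replicate 2, 3 without AL replicate 4 or 5). In EOD against IF16 1 to 6 were higher and 0 to 2 lower (0 without EOD replicate 1), and 1 was higher without IF16 replicate 4 or 5 or EOD replicate 2 or 3.

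Among the other alternatives, the DESeq2 Wald test called 937 genes in IF16 against AL, with 3 of the complement and coagulation genes lower there. In EOD against AL it called 5255 genes, with 6 of the complement and coagulation genes higher and 7 lower. With limma at a minimum mean FPKM, 6 were higher and 6 lower in EOD against AL with either pseudocount, among 4333 and 4352 genes called. With limma on unfiltered FPKM, 261 genes were called in IF16 against AL, with none of the complement and coagulation genes lower there (0). In EOD against IF16 that fit called 1549 genes, with 3 of the complement and coagulation genes higher and 2 lower. The filter of 1 CPM gave 0 lower in IF16 against AL, since it left out Cfd. No filter gave 3 higher and 3 lower in EOD against AL, among 4383 genes called. It gave 2 higher and 1 lower in EOD against IF16, among 1825 genes called. The 2 groups alone gave 3 higher and 3 lower in EOD against AL, and 8 higher and 1 lower in EOD against IF16. DESeq2 size factors gave 1 lower in EOD against IF16. Without AL replicates 4 and 5, 13 were higher and 2 lower in EOD against AL, and 9 higher and 1 lower in EOD against IF16.

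Libraries with the same replicate number were not paired by the labels, and their deviations correlated by -0.13 to 0.218. With the replicate block, 492, 4809 and 2226 genes were called in the 3 comparisons, with 3 of the complement and coagulation genes higher and 5 lower in EOD against AL, and 3 higher and 1 lower in EOD against IF16. In EOD against AL the block ended the calls of C9 (adjusted p = 0.0755) and Serpind1 (0.0707) and brought in Klkb1 (0.0228). In EOD against IF16 it ended those of F2 (0.0643), F9 (0.0661), F11 (-0.94, adjusted p = 0.0548) and Masp2 (0.0732) and brought in Klkb1 (0.0485). The numbers mark no known shared animal, litter or day. In the fit to all libraries Cfb alone had too few counts to be tested, and it entered the fit without AL replicates 4 and 5. Cfd was left out by the filter of 1 CPM.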
